A study of Mus musculus with 6 samples.

Results

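Integrins are cell surface receptors made of an α and a β chain, and laminins and nidogens are sheet-forming proteins of basement membranes that several of them bind. Members were taken by gene symbol alone (integrin α chains Itga, β chains Itgb, laminin chains Lama, Lamb and Lamc, and the nidogens Nid1 and Nid2), with no measured value used, among array features that carry exactly 1 gene symbol. This gave 38 genes, 26 integrin chains and 12 laminin and nidogen genes, of 19938 genes with such a feature. Where a gene had several features the brightest was read.

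RNA was measured on 6 arrays, 3 of Axin2+/GFP+ cells and 3 of Axin2-/GFP- cells from the calvarial suture mesenchyme of mice at postnatal day 28, on a mixed background of C57BL/6J, CD-1 and B6CBAF2. All mice carried both the Axin2rtTA transgene, a doxycycline-dependent activator under Axin2 control, and TRE-H2BGFP, the histone-GFP fusion that it switches on, and all received doxycycline between postnatal days 25 and 28. GFP marks cells by Axin2 activity in those days. Cells were sorted by GFP intensity, and no antibody against blood cells is named for the sort. Each sample pooled 6 to 8 mice, and the samples are labelled biological replicates, so errors are those between pools. Axin2 itself had log2 values of 2.89, 2.54 and 3.07 in Axin2+/GFP+ samples, against 2.18, 2.27 and 2.38 in Axin2-/GFP- samples, without overlap, and its change of 0.55 did not pass (limma adjusted p = 0.0802).

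Integrin pairs fall into families by the chain they share. The β2 chain pairs with αL, αM, αX and αD on leukocytes, and α4 and αE pair with β7 on lymphocytes, whereas α4 with β1 is found on leukocytes and on some stromal cells. Most other α chains pair with β1 and bind collagen, fibronectin or laminin, and αv also pairs with β3, β5, β6 and β8. Laminins are trimers of an α, a β and a γ chain, of which the γ1 chain encoded by Lamc1 is the most widely shared, and nidogens link them to type IV collagen.

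The members did not move as a block, and the leukocyte integrins moved in opposite directions. Of the 38 members 5 were higher and 2 lower in Axin2+/GFP+ than in Axin2-/GFP- cells (limma, adjusted p under 0.05 over all genes), beside 4.64% of all genes higher and 11.4% lower, or 16% in either direction. Higher were Itgam, Itgb2 and Itgad of the β2 family, Itgb5 and Lama3, and lower were Itga4 and Lamc1. At an unadjusted p under 0.05 the counts were 5 and 3, beside 16.3% and 17.6% of all genes. The groups did not overlap for 8 members in the higher direction (21.1%) and 4 in the lower (10.5%), beside 23.1% and 17.8% of all genes and 40.9% in either direction, so these shares lay below the background. The median log2 change was 0.16 over the members and 0.14 over all genes.

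**Figure D1:**
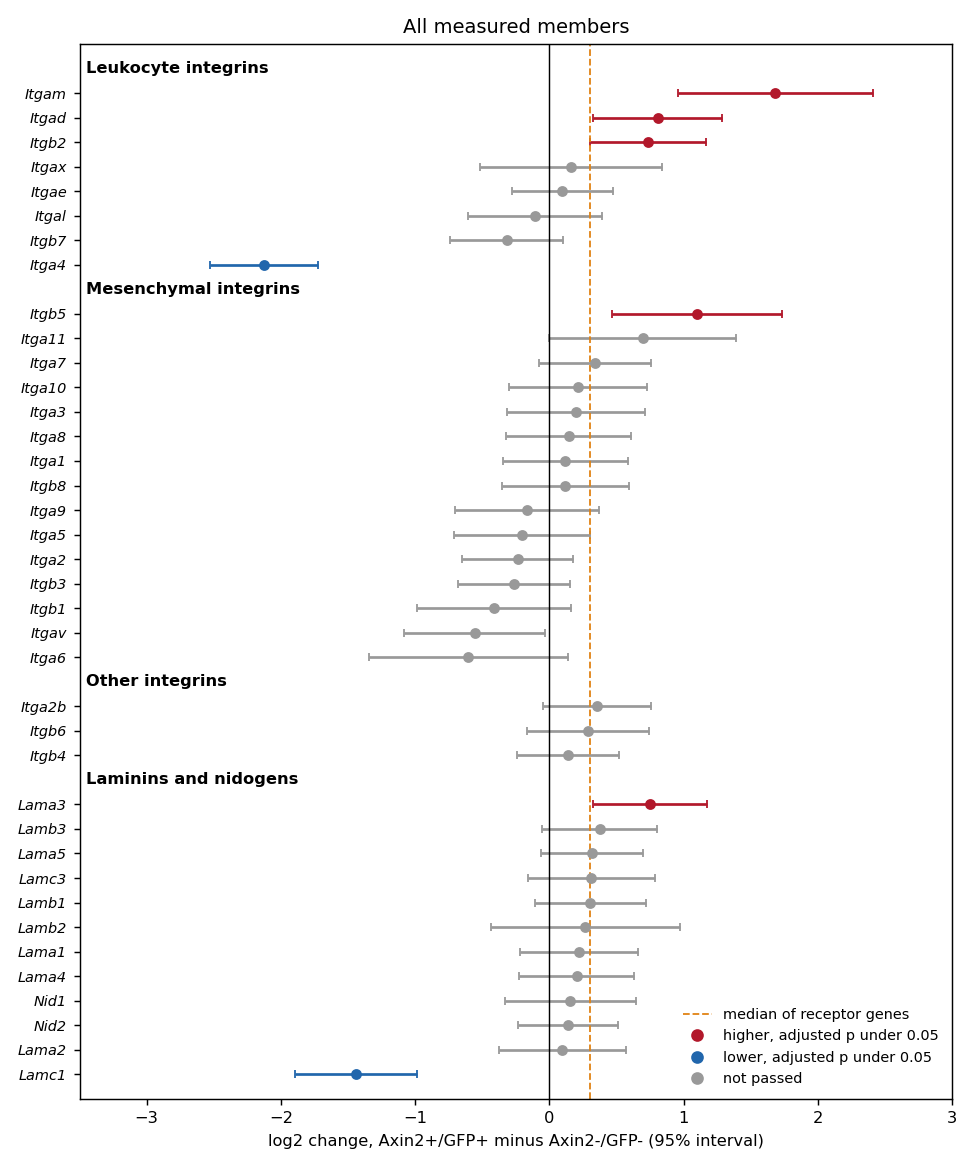
The log2 change of Axin2+/GFP+ over Axin2-/GFP- cells (horizontal axis) is drawn for each of the 38 members with its 95% interval from limma, by family, with 3 samples a group. The leukocyte integrins hold both the largest rise, Itgam at 1.68, and the largest fall, Itga4 at -2.12, and the dashed line is the median change of olfactory and vomeronasal receptor genes, 0.30.

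The arrays of the sorts differed in the shape of their distributions, which bears on small changes. The upper quartile over genes ran between 3.63 and 3.72 in Axin2+/GFP+ and between 3.94 and 3.98 in Axin2-/GFP- samples. The 1190 olfactory and vomeronasal receptor genes, a gauge of the dim end of the array, had a median log2 change of 0.30. Genes with a mean log2 value under 3, which include 20 members, had a median change of 0.25, those at 3 to under 5 with 16 members had -0.19, and those at 5 or more, with Itgam and Itgb2 as the only members, had -0.57. Fold changes were taken within a gene. Values of different genes depend on their probes, so the share of receptor genes at least as bright as a member shows only roughly how near it lay to the dim end.

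**Figure D2:**
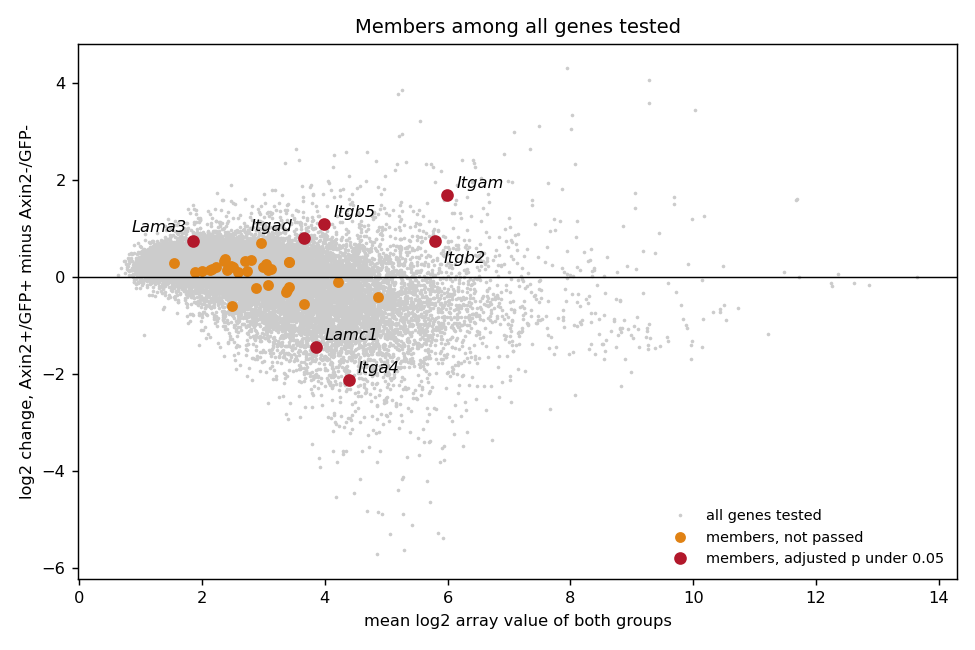
The log2 change is on the vertical axis and the mean log2 array value of both groups on the horizontal axis, with a grey point for each of the 19938 genes, orange points for members that did not pass and red points for the 7 that did. Itgam and Itgb2 lie above 0 in a signal range whose median change is -0.57, and the orange points lie between -0.61 (Itga6) and 0.70 (Itga11).

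Itgam, the αM chain (CD11b) of the receptor by which neutrophils and monocytes bind complement and fibrinogen, had log2 values of 6.62, 6.47 and 7.42 in Axin2+/GFP+ samples, against 5.68, 5.11 and 4.68 in Axin2-/GFP- samples. Every Axin2+/GFP+ sample lay above every Axin2-/GFP- sample. The means were 6.84 ± 0.51 in Axin2+/GFP+ and 5.15 ± 0.50 in Axin2-/GFP- samples (SD, n = 3 each), a difference of 1.68 ± 0.32 SE, limma adjusted p = 0.00972, which is 3.21-fold. The call held in 14 of 15 alternatives, with changes of 1.36 to 2.29, and ended in the methods' t-test (adjusted p = 0.104). Itgb2, the β2 chain (CD18) shared by the whole family, had 6.19, 6.38 and 5.92 in Axin2+/GFP+ samples, against 5.58, 5.45 and 5.26 in Axin2-/GFP- samples, again without overlap (0.73 ± 0.19 SE, limma adjusted p = 0.0330). Its call ended in 9 of 15 alternatives, among them median centring (0.63), receptor gene centring (0.42), and leaving out Axin2+/GFP+ replicate 1 (0.72) or 2 (0.62) or Axin2-/GFP- replicate 1 (0.81), 2 (0.74) or 3 (0.65), while quantile normalization and cyclic loess gave 1.19 and 1.33.

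Itgad, the αD chain of some macrophages, had 4.07, 3.89 and 4.25 in Axin2+/GFP+ samples, against 3.21, 3.61 and 2.97 in Axin2-/GFP- samples. No sample crossed over (0.81 ± 0.21 SE, limma adjusted p = 0.0350). Its other feature ran at 2.83, 3.03 and 3.01 in Axin2+/GFP+ samples, against 2.62, 2.94 and 2.38 in Axin2-/GFP- samples, with overlap and a change of 0.31, and the mean of both features (0.56) did not pass. The call also ended in the methods' t-test, with a block for the replicate number, with median centring (0.70) and with receptor gene centring (0.49). Leaving out Axin2+/GFP+ replicate 1 (0.81) or 3 (0.72) or Axin2-/GFP- replicate 1 (0.78) or 3 (0.66) ended it too. Itgam, Itgax and Itgad are consecutive protein-coding genes in the genome. Itgax, the αX chain (CD11c) of dendritic cells and macrophages that lies between those that rose, averaged 2.24 ± 0.40 in Axin2+/GFP+ and 2.08 ± 0.52 in Axin2-/GFP- samples (SD, n = 3 each). Its groups overlapped, with a change of 0.16 (95% interval -0.52 to 0.84). It was dim, since 24.5% of the receptor genes in Axin2+/GFP+ and 17.4% in Axin2-/GFP- cells were at least as bright. Itgal, the αL chain (CD11a) of most leukocytes, had 3.72, 4.35 and 4.42 in Axin2+/GFP+ samples, against 4.40, 4.16 and 4.24 in Axin2-/GFP- samples. These groups overlapped too, and the change of -0.11 (95% interval -0.61 to 0.39) was positive under quantile normalization (0.23), cyclic loess (0.26) and without Axin2+/GFP+ replicate 1 (0.12). In the β2 family 3 of 5 chains were thus higher and 2 did not pass, beside 4.64% of all genes higher and 11.4% lower. Of these 3 calls, those of Itgb2 and Itgad each ended in 9 of 15 alternatives.

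Itga4, the α4 chain (CD49d) by which lymphocytes and blood progenitors bind Vcam1 and fibronectin, had 3.37, 3.43 and 3.17 in Axin2+/GFP+ samples, against 5.65, 5.37 and 5.32 in Axin2-/GFP- samples. The lowest Axin2-/GFP- sample lay more than a log2 unit above the highest Axin2+/GFP+ sample. The means were 3.32 ± 0.13 in Axin2+/GFP+ and 5.45 ± 0.18 in Axin2-/GFP- samples (SD, n = 3 each), a difference of -2.12 ± 0.18 SE, limma adjusted p = 0.000281, so that the level in Axin2-/GFP- cells was 4.36 times that in Axin2+/GFP+ cells. It passed in all 15 alternatives, with changes of -2.44 to -1.71. Its lymphocyte partner Itgb7, the β7 chain, had 3.21, 3.36 and 3.05 in Axin2+/GFP+ samples, against 3.67, 3.64 and 3.28 in Axin2-/GFP- samples. The groups overlapped, and the change of -0.32 (95% interval -0.74 to 0.099) passed only under receptor gene centring (-0.64). Itgae, the αE chain (CD103) of intraepithelial lymphocytes, ran at 1.84 to 2.04 in Axin2+/GFP+ and 1.72 to 1.98 in Axin2-/GFP- samples, with a change of 0.097. 41.3% of the receptor genes in Axin2+/GFP+ and 27.0% in Axin2-/GFP- cells were at least as bright.

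The promoters of the leukocyte integrins with the largest rise and the largest fall are shown because these genes moved in opposite directions. They are the 250 bases before the start site from RefSeq (build GRCm38.p6, both on the plus strand), Itgam at chr7:128062390-128062639 and Itga4 at chr2:79255176-79255425, with capitals at each match to the PU box, GAGGAA or its reverse complement TTCCTC. The PU box is bound by PU.1, a transcription factor of myeloid and B cells.
Itgam: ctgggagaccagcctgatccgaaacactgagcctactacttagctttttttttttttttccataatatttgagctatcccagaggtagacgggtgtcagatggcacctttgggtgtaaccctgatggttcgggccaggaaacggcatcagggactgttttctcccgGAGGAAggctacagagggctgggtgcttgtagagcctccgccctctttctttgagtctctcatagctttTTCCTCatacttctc
Itga4: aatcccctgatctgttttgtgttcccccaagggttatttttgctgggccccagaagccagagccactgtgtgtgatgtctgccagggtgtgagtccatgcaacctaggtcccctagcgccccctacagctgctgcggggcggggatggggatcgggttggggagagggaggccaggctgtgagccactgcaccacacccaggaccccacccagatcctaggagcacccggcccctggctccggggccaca
The Itgam window holds 2 matches, which lie 84 and 15 bases before the start site, and the Itga4 window holds 0. Promoters were matched for 24 of the 38 members, with 27 windows in all, of which 14 (51.9%) hold the motif, against 23.3% of the 32851 windows in the table. Of the other leukocyte integrins only Itgax and Itgb7 were matched. Their windows hold 0 matches, as does that of Itgb5. The motif also stands before members outside the leukocyte list that did not pass, among them Itgb1, Itgav, Itga11, Lama5 and Nid1. A second motif, the GC box (GGGCGG or its reverse complement CCGCCC), was also searched. It stands before 9 of the 24 matched members, against 14 for the PU box, and 32.7% of all windows hold it. A match is a string of letters and not a measured binding site.

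**Figure D3:**
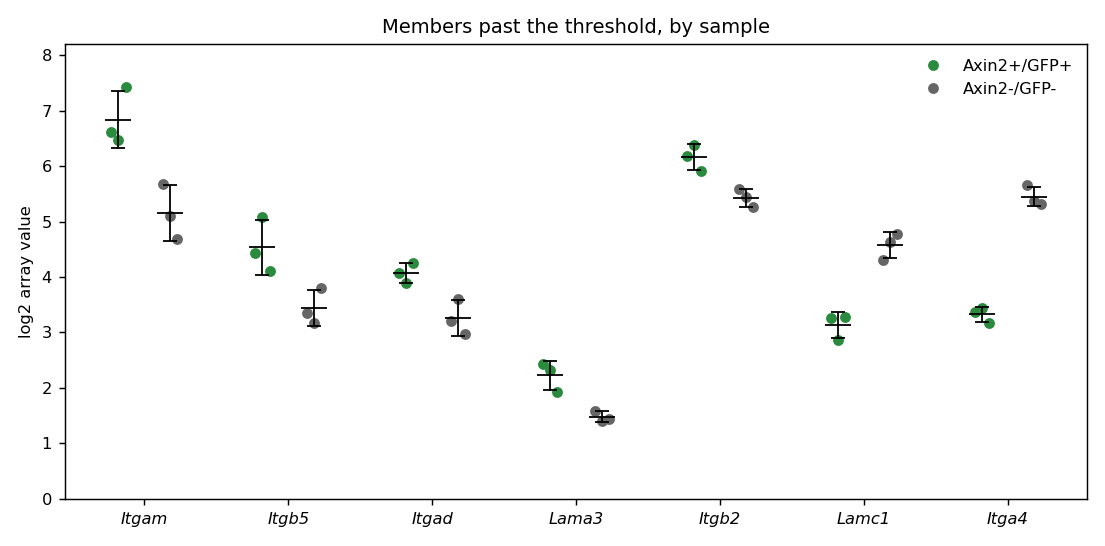
Log2 array values (vertical axis) are shown for the 7 members that passed, with a point per sample, green for Axin2+/GFP+ to the left of grey for Axin2-/GFP-, the mean as a horizontal bar and 1 SD as whiskers (n = 3). The groups of these 7 genes do not overlap, and Lamc1 and Itga4 are the 2 that are lower in Axin2+/GFP+ cells.

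Among markers of blood cells, those of neutrophils and of the B lineage differed most between the sorts. Of 15 neutrophil markers 12 were higher and 0 lower, and their summed level (linear values added and returned to the log2 scale) was 14.42, 14.31 and 14.46 in Axin2+/GFP+ samples, against 13.16, 12.01 and 11.50 in Axin2-/GFP- samples. All 12 measured B-lineage markers were lower, with a summed level of 6.66 to 6.78 in Axin2+/GFP+ and 10.81 to 11.25 in Axin2-/GFP- samples. Of 11 T and NK cell markers 0 were higher and 2 lower (18.2%), and of 13 macrophage and monocyte markers 0 and 2 (15.4%). Over all genes 4.64% were higher and 11.4% lower. The part of these cells in the results for Itgam, Itgb2, Itgad and Itga4 was not tested, and in sorted bulk samples fewer cells of a type and less RNA per cell cannot be told apart.

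The mesenchymal integrins were a list of 15 chains of collagen, fibronectin and laminin receptors. Some of them (Itga2, Itga6 and Itgb3) are also chains of platelets, epithelium or osteoclasts. Itgb1 and Itga9 are broad chains, and Itgb1 also pairs with α4 on leukocytes, so the list is not confined to mesenchyme. It gave 1 chain higher (6.67%), 0 lower and 14 that did not pass, beside 4.64% higher and 11.4% lower over all genes. At an unadjusted p under 0.05 in limma 1 of the 15 passed in each direction, beside 16.3% of all genes higher and 17.6% lower. Itgb4, Itgb6 and Itga2b stand in neither this list nor the leukocyte list. Itgb5, the β5 chain that pairs with αv to bind vitronectin, had 4.44, 5.07 and 4.10 in Axin2+/GFP+ samples, against 3.35, 3.17 and 3.81 in Axin2-/GFP- samples. All Axin2+/GFP+ samples were higher, with replicate 2 the highest. The difference was 1.10 ± 0.28 SE, limma adjusted p = 0.0312, which is 2.14-fold. The call ended in the methods' t-test, with a block for the replicate number and under receptor gene centring (0.78). It also ended without Axin2+/GFP+ replicate 1 (1.15) or 2 (0.83) and without Axin2-/GFP- replicate 1 (1.05) or 2 (0.96). Its partner Itgav, the αv chain, had 3.10, 3.52 and 3.51 in Axin2+/GFP+ samples, against 3.74, 3.70 and 4.37 in Axin2-/GFP- samples. Every Axin2+/GFP+ sample was lower, yet the difference (-0.56 ± 0.23 SE, limma adjusted p = 0.130) passed only under receptor gene centring (-0.88). Of 13 skeletal mesenchyme markers 4 were higher (Col1a1, Col1a2, Col3a1 and Six2), 0 lower and 9 did not pass. The summed level of the 13, in which Col1a1 and Col1a2 were the brightest, was 11.36 to 11.88 in Axin2+/GFP+ and 9.68 to 10.23 in Axin2-/GFP- samples. The part of these markers in the change of Itgb5 was not tested.

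Itgb1, the β1 chain that most of these receptors share, had 4.16, 4.91 and 4.93 in Axin2+/GFP+ samples, against 5.39, 4.89 and 4.97 in Axin2-/GFP- samples. The groups overlapped, and the change of -0.41 had a 95% interval of -0.99 to 0.16 and was positive under quantile normalization (0.042) and cyclic loess (0.098). Itgb3, the β3 chain of platelets, osteoclasts and αv-bearing stromal cells, had 3.06, 3.55 and 3.15 in Axin2+/GFP+ samples, against 3.57, 3.51 and 3.47 in Axin2-/GFP- samples, with overlap and a change of -0.26 (95% interval -0.68 to 0.16).

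Of the collagen receptors, Itga11, an α chain of fibroblasts and osteoblasts that binds fibrillar collagen, ran at 2.71 to 3.95 in Axin2+/GFP+ and 2.31 to 2.81 in Axin2-/GFP- samples, with the widest spread of all members among Axin2+/GFP+ samples (SD 0.62). Axin2+/GFP+ replicate 3 fell within the range of the Axin2-/GFP- samples. The difference (0.70 ± 0.31 SE, limma adjusted p = 0.148) did not pass, and without that replicate it was 0.99 and passed (limma adjusted p = 0.0469). Itga2, the α2 chain of platelets and epithelium, had 2.84, 2.82 and 2.65 in Axin2+/GFP+ samples, against 3.26, 2.89 and 2.86 in Axin2-/GFP- samples. Every Axin2+/GFP+ sample was lower, by a narrow margin, and the change of -0.24 did not pass. Itga1 and Itga10, which also pair with β1 to bind collagen, had changes of 0.12 and 0.21 with overlap.

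Of the receptors of fibronectin and other ligands, Itga5, the α chain of the main fibronectin receptor, had a log2 change of -0.20 (95% interval -0.71 to 0.30), Itga9 of -0.17, Itga8, a receptor chain for nephronectin, of 0.14 and Itgb8, which with αv binds latent TGFβ, of 0.12. All 4 overlapped between the groups. Itgb6, an epithelial partner of αv, had a change of 0.29 and lay near the dim end. 57.1% of the receptor genes in Axin2+/GFP+ and 54.5% in Axin2-/GFP- cells were at least as bright.

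The 4 laminin receptor chains gave no call. Itga6, the α6 chain of epithelial and many progenitor cells, averaged 2.19 ± 0.52 in Axin2+/GFP+ and 2.79 ± 0.52 in Axin2-/GFP- samples (SD, n = 3 each). It had the widest spread of the members among Axin2-/GFP- samples, and its change of -0.61 (95% interval -1.35 to 0.13) did not pass. Itga3, which binds laminins of epithelium, Itga7, of muscle, and Itgb4, the hemidesmosome partner of α6, had changes of 0.20, 0.34 and 0.13. Itga2b, the platelet chain αIIb (CD41), had 2.98, 2.82 and 3.12 in Axin2+/GFP+ samples, against 2.46, 2.81 and 2.59 in Axin2-/GFP- samples. The groups were just separated and the change of 0.35 did not pass. Of 5 measured megakaryocyte and platelet markers 0 were higher and 1 lower (20%), beside 4.64% and 11.4% of all genes. The 1 that fell was Pf4, a platelet chemokine (-2.57 ± 0.39 SE, limma adjusted p = 0.00370).

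Set side by side, the leukocyte and mesenchymal integrins did not separate the sorts in the values as deposited. The mean log2 value of the 8 leukocyte integrins was 3.99, 3.97 and 4.02 in Axin2+/GFP+ samples, against 4.08, 3.90 and 3.65 in Axin2-/GFP- samples, and that of the 15 mesenchymal integrins was 2.90, 3.21 and 3.09 in Axin2+/GFP+ samples, against 3.10, 2.94 and 3.07 in Axin2-/GFP- samples. Both lists overlapped between the sorts. The leukocyte mean minus the mesenchymal mean, a gap whose size depends on the probes and which is compared between sorts only, was 1.09, 0.76 and 0.92 in Axin2+/GFP+ samples, against 0.98, 0.95 and 0.58 in Axin2-/GFP- samples. It averaged 0.92 ± 0.17 in Axin2+/GFP+ and 0.84 ± 0.23 in Axin2-/GFP- samples (SD, n = 3 each), a difference of 0.085 that was smaller than either spread. Under quantile normalization and cyclic loess the difference was larger, 0.26 and 0.34. It was -0.046 without Axin2-/GFP- replicate 3, 0.0015 without Axin2+/GFP+ replicate 1, 0.17, 0.16 and 0.14 without Axin2+/GFP+ replicate 2, Axin2-/GFP- replicate 1 and Axin2-/GFP- replicate 2, and 0.41 without Itga4. The 5 β2 family chains alone averaged 4.66, 4.61 and 4.82 in Axin2+/GFP+ samples, against 4.31, 4.04 and 3.77 in Axin2-/GFP- samples, without overlap. They include Itgam, Itgb2 and Itgad, called higher in these same samples, so the separation of their mean adds nothing to those calls. The median log2 change was 0.13 over the leukocyte and 0.12 over the mesenchymal integrins, beside 0.14 over all genes. These medians became -0.19 and -0.20 under receptor gene centring, 0.11 and -0.058 under quantile normalization and 0.086 and -0.11 under cyclic loess.

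**Figure D4:**
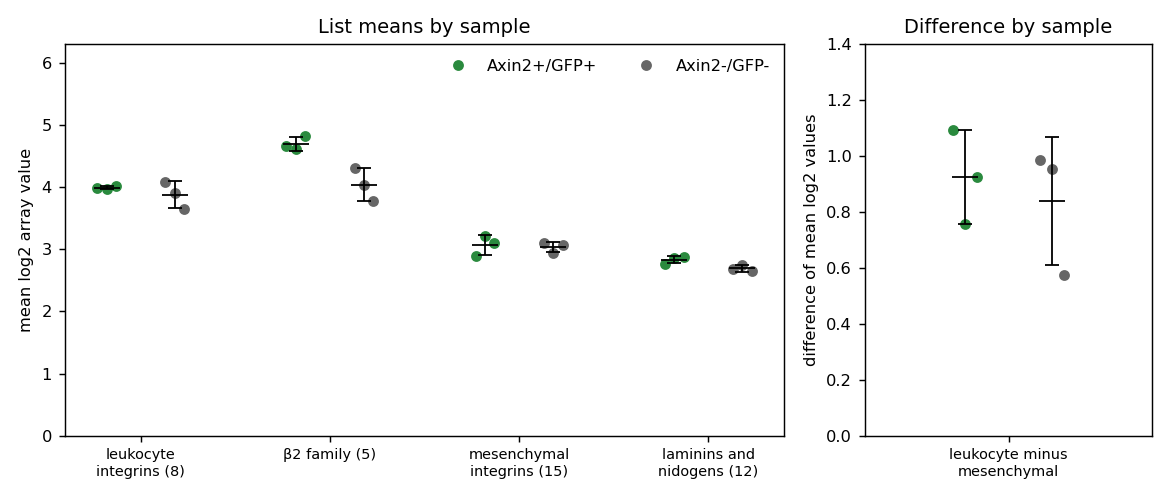
Mean log2 array values of 4 groups of members (left) and the leukocyte minus mesenchymal difference of means (right) are shown by sample, green for Axin2+/GFP+ and grey for Axin2-/GFP-, the mean as a horizontal bar and 1 SD as whiskers (n = 3). The sorts overlap for the leukocyte integrins, the mesenchymal integrins and their difference, and separate for the β2 family and, narrowly, for the laminins and nidogens. The β2 family includes Itgam, Itgb2 and Itgad, which were called higher in these same samples.

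Among the laminins and nidogens 1 gene was higher (8.33%), 1 lower (8.33%) and 10 did not pass, beside 4.64% higher and 11.4% lower over all genes. Lamc1, which encodes the γ1 chain, had 3.26, 2.86 and 3.28 in Axin2+/GFP+ samples, against 4.31, 4.63 and 4.78 in Axin2-/GFP- samples. The lowest Axin2-/GFP- sample lay about a log2 unit above the highest Axin2+/GFP+ sample. The means were 3.13 ± 0.23 in Axin2+/GFP+ and 4.57 ± 0.24 in Axin2-/GFP- samples (SD, n = 3 each), a difference of -1.44 ± 0.20 SE, limma adjusted p = 0.00252, so that the level in Axin2-/GFP- cells was 2.71 times that in Axin2+/GFP+ cells. It passed in all 15 alternatives, with changes of -1.76 to -1.19 and a highest adjusted p of 0.0489 in the methods' t-test. Of 10 endothelial markers 0 were higher and 1 lower (10%), beside 4.64% and 11.4% of all genes. The 1 that fell was Pecam1, which leukocytes also express (-2.23 ± 0.26 SE, limma adjusted p = 0.00119). Of the 10 changes, with a median of 0.11, 6 were positive. The summed level, which includes Pecam1, was 6.17 to 6.23 in Axin2+/GFP+ and 6.52 to 6.96 in Axin2-/GFP- samples. The part of B-lineage and endothelial cells in the fall of Lamc1 was not tested.

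The β chains that assemble with γ1 gave no call. Lamb1 had 3.47, 3.81 and 3.43 in Axin2+/GFP+ samples, against 3.40, 3.28 and 3.11 in Axin2-/GFP- samples. Every Axin2+/GFP+ sample was higher, with a change of 0.30 (95% interval -0.11 to 0.72) that did not pass and was -0.015 under receptor gene centring. Lamb2, a chain of muscle, nerve and kidney, had a change of 0.27 (95% interval -0.44 to 0.97).

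Lama3, the α3 chain of the laminin of skin and other epithelia, had 2.43, 2.32 and 1.93 in Axin2+/GFP+ samples, against 1.59, 1.41 and 1.44 in Axin2-/GFP- samples. The groups did not overlap (0.75 ± 0.19 SE, limma adjusted p = 0.0300). The gene was dim, since 25.1% of the receptor genes in Axin2+/GFP+ and 48.6% in Axin2-/GFP- cells were at least as bright. The call ended in the methods' t-test and under median centring (0.64), receptor gene centring (0.43), quantile normalization (0.54) and cyclic loess (0.49). It also ended without Axin2+/GFP+ replicate 1 (0.65) or 2 (0.70) or Axin2-/GFP- replicate 1 (0.80), 2 (0.71) or 3 (0.73). Lamb3, which joins Lama3 in the same epithelial laminin, had 2.72, 2.34 and 2.60 in Axin2+/GFP+ samples, against 2.04, 2.42 and 2.09 in Axin2-/GFP- samples. Its groups overlapped and the change of 0.37 did not pass. Of 8 epithelial markers 1 was higher (12.5%) and 0 lower, beside 4.64% and 11.4% of all genes. Their summed level was 6.43 to 6.53 in Axin2+/GFP+ and 5.72 to 5.99 in Axin2-/GFP- samples, and their part in the change of Lama3 was not tested.

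Lama5, the α chain of vessels and many epithelia, had 2.38, 2.49 and 2.69 in Axin2+/GFP+ samples, against 2.11, 2.25 and 2.25 in Axin2-/GFP- samples. Every Axin2+/GFP+ sample was higher, and the change of 0.32 did not pass and was -0.00085 under receptor gene centring. Lama1, the α chain of embryonic basement membranes, had a change of 0.22, Lama2, that of muscle and nerve, 0.096, and Lama4, that of vessels and fat, 0.20. Lamc3, a γ chain of more restricted distribution, had a change of 0.31, and the nidogens Nid1 and Nid2 had 0.16 and 0.14, all with overlap. In all, 11 of the 12 genes had a positive change, with a median of 0.24, below the 0.30 of the receptor genes. Under receptor gene centring 2 were positive, with a median of -0.076.

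The partners of these receptors were described from 3 lists. Of 13 measured integrin ligands 2 were higher (15.4%) and 2 lower (15.4%), beside 4.64% and 11.4% of all genes. Thbs1, thrombospondin, had 8.25, 9.02 and 8.55 in Axin2+/GFP+ samples, against 7.12, 6.93 and 5.99 in Axin2-/GFP- samples (1.93 ± 0.32 SE, limma adjusted p = 0.00541). The groups did not overlap, and the call ended only in the methods' t-test among 15 alternatives. The α4 ligands Vcam1 and Fn1, fibronectin, moved in opposite directions. Vcam1 had 2.96, 3.53 and 4.16 in Axin2+/GFP+ samples, against 2.65, 2.47 and 2.33 in Axin2-/GFP- samples (1.07 ± 0.29 SE, limma adjusted p = 0.0387), and its call ended in 11 alternatives, among them leaving out Axin2+/GFP+ replicate 2 (1.08) or 3 (0.76) or any 1 Axin2-/GFP- sample (0.99 to 1.15). Fn1 had 5.20, 5.37 and 4.61 in Axin2+/GFP+ samples, against 6.07, 6.39 and 5.67 in Axin2-/GFP- samples (-0.98 ± 0.26 SE, limma adjusted p = 0.0373), and its call ended in 7, among them quantile normalization (-0.53), cyclic loess (-0.40), and leaving out Axin2+/GFP+ replicate 1 (-1.05) or 3 (-0.75) or Axin2-/GFP- replicate 1 (-0.97) or 2 (-0.81). Neither had overlapping groups. Icam2, a ligand of αL on endothelium and leukocytes, changed by -1.01 ± 0.25 SE, limma adjusted p = 0.0281. Its call ended in the methods' t-test, under quantile normalization (-0.71) and cyclic loess (-0.66), and without Axin2+/GFP+ replicate 2 (-0.80) or Axin2-/GFP- replicate 2 (-0.94) or 3 (-0.89).

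Of 32 measured adaptors and kinases that act on integrin tails 2 were higher (6.25%) and 5 lower (15.6%), beside 4.64% and 11.4% of all genes. Both that rose bind actin at adhesions. Actn1, α-actinin, had 5.01, 5.03 and 5.62 in Axin2+/GFP+ samples, against 3.77, 3.52 and 3.72 in Axin2-/GFP- samples, without overlap (1.55 ± 0.21 SE, limma adjusted p = 0.00218), and passed in 14 of 15 alternatives. Flna, filamin A, changed by 0.84 ± 0.22 SE, limma adjusted p = 0.0342 and passed in 6. Its call ended in the methods' t-test and, among others, without Axin2+/GFP+ replicate 2 (0.79) or 3 (0.76) or Axin2-/GFP- replicate 2 (0.73) or 3 (0.76). Quantile normalization and cyclic loess gave 1.29 and 1.44. Among those that fell, Ptk2b, the focal adhesion kinase relative of blood cells, had 5.24, 4.95 and 5.25 in Axin2+/GFP+ samples, against 6.11, 6.34 and 6.90 in Axin2-/GFP- samples (-1.30 ± 0.23 SE, limma adjusted p = 0.00708). Its call ended in the methods' t-test and under quantile normalization (-0.86) and cyclic loess (-0.71). Cib1, which binds the αIIb tail, changed by -1.27 ± 0.22 SE, limma adjusted p = 0.00697 and passed in 14 of 15. Rap1a, a small GTPase that activates integrins, changed by -1.97 ± 0.49 SE, limma adjusted p = 0.0286, a call lost in 6 of 15 alternatives, among them quantile normalization (-1.57), cyclic loess (-1.37) and leaving out any 1 Axin2-/GFP- sample (-2.14 to -1.83). Sharpin, an inhibitor of integrin activation, changed by -1.68 ± 0.41 SE, limma adjusted p = 0.0272, a call lost in 8 of 15, among them quantile normalization (-1.35), cyclic loess (-1.20) and leaving out Axin2+/GFP+ replicate 1 (-1.48) or 3 (-1.33) or any 1 Axin2-/GFP- sample (-1.74 to -1.61). Apbb1ip, which links Rap1 to talin, was the other that fell (-0.98). Talin 1 (Tln1) and the kindlins Fermt2 and Fermt3, which bind β tails directly, had changes of 0.11, -0.025 and 0.039 and did not pass.

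Of 20 other basement membrane genes 2 were higher (10%) and 0 lower, beside 4.64% and 11.4% of all genes. At an unadjusted p under 0.05 in limma the counts were 8 and 0, beside 16.3% and 17.6% of all genes. Sparc, a collagen-binding matrix protein of bone, had 10.67, 10.86 and 10.20 in Axin2+/GFP+ samples, against 9.78, 9.08 and 9.31 in Axin2-/GFP- samples, without overlap (1.19 ± 0.25 SE, limma adjusted p = 0.0140). In the methods' t-test and without Axin2-/GFP- replicate 2 (1.03) or 3 (1.15) it did not pass. Its relative Smoc2 changed by 0.85 ± 0.24 SE, limma adjusted p = 0.0449 and passed in 4 of 15 alternatives. The call of Smoc2 ended in the methods' t-test and, among others, without Axin2+/GFP+ replicate 2 (0.94) or 3 (0.64) or any 1 Axin2-/GFP- sample (0.69 to 0.99). The type IV collagen chains, the partners of laminin in the sheet, changed by 0.048 (Col4a1) to 0.28 (Col4a3), and none of the 6 passed. The list had a median of 0.37, with 19 of 20 changes positive, and under receptor gene centring a median of 0.048 with 12 positive.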

How the data were processed

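The authors deposited log2 array values per feature, 1 Affymetrix array per sample labelled with a whole-transcript kit. Per the submitters' processing notes RMA and R 3.2.1 were used. Other steps were not given in the sources used here, and log2 was inferred from RMA and from the range of the values. All value columns matched a sample, leaving 0 unmatched. Gene names came from the platform annotation, and 21698 of 21789 features with 1 symbol matched a RefSeq gene identifier (GRCm38.p6), which changed 0 names. Of the rest 1621 features had several symbols and 12147 had none. The test was lmFit with eBayes of limma 3.58.1, run in R 4.3.3, with Benjamini-Hochberg adjustment over 19938 genes, a threshold of 0.05 and no filter, and 999 genes with several features were read by the brightest.

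The members and lists were chosen with earlier results of these data known, so no p was adjusted over a list. Sample values were given for members that passed or whose groups did not overlap and for Itgb1, Itgav, Itga4 and Itgb3, and up to 6 called genes with the smallest p were named from each other list. Itgb7, Itgal, Lamb3, Pf4, Pecam1, Apbb1ip, Tln1, Fermt2, Fermt3, Col4a1 and Col4a3 were given values after these were seen.

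The 15 alternatives were a trended prior in limma, the methods' two-sided t-test, a block for the replicate number, median centring, centring on 1190 receptor genes, quantile normalization, cyclic loess, dropping dim features, averaging a gene's features, and leaving out each sample in turn (with the spread estimated from both groups together). Simulated data were used to test the scripts. The number of arrays limits the precision.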

Additional observations from a re-analysis of the deposited data

How the results depend on the processing

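The calls of Itga4 and Lamc1 passed in all 15 alternatives and that of Itgam in 14. The leukocyte integrins called higher, 3 as reported, numbered 0 in the methods' t-test, 1 under median centring and under receptor gene centring, and 1 to 2 with a sample left out, and those called lower, 1 as reported, numbered 2 under receptor gene centring. The mesenchymal integrins called higher, 1 as reported, numbered 0 in the methods' t-test, in the replicate block and under receptor gene centring, and 0 to 2 with a sample left out, and those called lower, 0 as reported, numbered 1 under receptor gene centring. The laminins and nidogens called higher, 1 as reported, numbered 0 in the methods' t-test and under median centring, receptor gene centring, quantile normalization and cyclic loess, and 0 to 1 with a sample left out. The leukocyte minus mesenchymal difference, 0.085 as reported, was 0.34 under cyclic loess, 0.41 without Itga4 and -0.046 to 0.17 with a sample left out. The cause of these shifts was not tested.

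Members whose change turned sign passed neither as reported nor after it. Under receptor gene centring these were Itga1 (-0.20), Itga10 (-0.11), Itga3 (-0.12), Itga8 (-0.18), Itgae (-0.22), Itgax (-0.16), Itgb4 (-0.18), Itgb6 (-0.032), Itgb8 (-0.20), Lama1 (-0.099), Lama2 (-0.22), Lama4 (-0.12), Lama5 (-0.00085), Lamb1 (-0.015), Lamb2 (-0.052), Lamc3 (-0.0077), Nid1 (-0.16) and Nid2 (-0.18). Under cyclic loess they were Itga1 (-0.055), Itga3 (-0.024), Itga8 (-0.11), Itgae (-0.16), Itgal (0.26), Itgax (-0.092), Itgb1 (0.098), Itgb8 (-0.14), Lama1 (-0.0057), Lama2 (-0.11), Lama4 (-0.050) and Nid2 (-0.096), under quantile normalization Itga8 (-0.058), Itgae (-0.12), Itgal (0.23), Itgax (-0.019), Itgb1 (0.042), Itgb8 (-0.096), Lama2 (-0.038) and Nid2 (-0.034), and under median centring Itgae (-0.012) and Lama2 (-0.013). With a sample left out the range crossed 0 for Itga1 (-0.025 to 0.25), Itga3 (-0.023 to 0.32), Itga8 (-0.050 to 0.28), Itga9 (-0.33 to 0.036), Itgal (-0.23 to 0.12), Itgax (-0.065 to 0.46), Itgb8 (-0.036 to 0.24) and Lama2 (-0.027 to 0.25).

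In the replicate block 3 members were higher and 2 lower, the calls of Itgad (0.81, adjusted p = 0.0627 in limma) and Itgb5 (1.10, adjusted p = 0.0542) ended, and over all genes 643 were higher and 2201 lower, against 926 and 2265 as reported. Deviations of same-numbered samples correlated at 0.031, 0.011 and 0.053, and those of differently numbered samples at -0.050 to 0.017. The labels do not say whether same-numbered samples came from the same mice, and with 3 samples a group these correlations cannot decide it. Over all genes the methods' t-test called 211 higher and 518 lower, median centring 459 and 2719, receptor gene centring 210 and 3980, quantile normalization 768 and 1266, cyclic loess 901 and 1373, and the fits with a sample left out 239 to 852 and 1376 to 2082.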

Other observations

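Outside the symbol rule, and chosen after its values were seen, Itgb2l, a relative of the β2 chain found in mouse neutrophils, had 5.08, 4.83 and 5.25 in Axin2+/GFP+ samples, against 3.23, 3.03 and 2.93 in Axin2-/GFP- samples. The groups did not overlap (1.99 ± 0.18 SE, limma adjusted p = 0.000416), and it passed in all 15 alternatives with changes of 1.67 to 2.31. Itgbl1, a protein related to β chains, averaged 3.85 ± 0.34 in Axin2+/GFP+ and 3.33 ± 0.43 in Axin2-/GFP- samples (SD, n = 3 each), with overlap and a change of 0.52 that did not pass.

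The 3 features that carry the symbols Rpl35 and Itgam together were used for neither gene. They ran at 7.82 to 8.95 in Axin2+/GFP+ and at 9.27 to 10.04 in Axin2-/GFP- samples, with changes of -1.29, -1.38 and -1.30, opposite in sign to the feature of Itgam alone.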
